A study of Mus musculus with 16 samples.

Results

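The Cyp4a genes encode cytochrome P450 enzymes that hydroxylate fatty acids at the omega carbon, and 6 of them were followed here in mouse liver: Cyp4a10, Cyp4a14, Cyp4a31, Cyp4a32, Cyp4a12a and Cyp4a12b. They were taken by gene symbol from a deposited table of 78317 genes, where each symbol matched 1 gene, and all 6 were among the 14781 genes with enough counts to be tested. The livers came from 16 wild type C57BL/6J mice in 4 groups of 4: females and males on a normal diet (LabDiet 5053, 4.5% of energy from fat) and females and males on a high fat diet (Research Diets D12492, 60% of energy from fat). The mice arrived at 6 weeks of age and stayed on their diet for 10 weeks. Nothing in the labels ties a mouse of one group to a mouse of another. Each library was made from powdered whole liver, so fewer cells of a type and less RNA per cell cannot be told apart.

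Omega hydroxylation opens a route by which medium and long chain fatty acids are turned into dicarboxylic acids, which are then shortened in peroxisomes. Cyp4a10 and Cyp4a14 are textbook targets of PPAR alpha, the nuclear receptor that fatty acids activate in hepatocytes, and Cyp4a31 and Cyp4a32 are close relatives of Cyp4a10. Cyp4a12a and Cyp4a12b are known as male-biased genes of liver and kidney: the pulses of growth hormone that males secrete act through STAT5b to keep such genes active, and the steadier secretion of females keeps them low. Cyp4a12a is also known for making the lipid mediator 20-HETE from arachidonic acid.

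All 6 genes lie in 1 cluster on chromosome 4, in the order Cyp4a12a, Cyp4a12b, Cyp4a14, Cyp4a10, Cyp4a31 and Cyp4a32, with Cyp4a14 on the minus strand and the others on the plus strand in the GENCODE M21 annotation of GRCm38. The deposited values were made on GRCm39, so gene order and not coordinates are given. Copies within the cluster are so alike that the assignment of reads between them matters. The coding sequences of Cyp4a12a and Cyp4a12b were 98.5% identical, with 23 of 1524 bases differing. Cyp4a10 shared 96.6% of its coding bases with Cyp4a31 and 97.2% with Cyp4a32, whereas Cyp4a14 shared between 74.8% and 75.8% with each other member. The stretch of 90 coding bases with the densest differences within each set is shown, in the sense direction, because reads such as these are what separates the copies; capitals mark the bases at which the members of a set differ. For Cyp4a12a and Cyp4a12b the stretch is coding positions 661 to 750, with 7 of the 23 differing bases.
Cyp4a12a: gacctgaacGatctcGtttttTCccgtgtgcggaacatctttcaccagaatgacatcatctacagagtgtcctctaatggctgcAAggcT
Cyp4a12b: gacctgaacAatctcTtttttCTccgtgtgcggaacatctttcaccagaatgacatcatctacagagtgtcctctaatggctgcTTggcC
For Cyp4a10, Cyp4a31 and Cyp4a32 the stretch is coding positions 190 to 279, with 13 of the 77 at which any of the 3 differ.
Cyp4a10: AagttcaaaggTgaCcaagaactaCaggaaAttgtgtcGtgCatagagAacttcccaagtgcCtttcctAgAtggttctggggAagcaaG
Cyp4a31: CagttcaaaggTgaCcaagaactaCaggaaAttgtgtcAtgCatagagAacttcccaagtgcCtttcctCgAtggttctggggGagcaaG
Cyp4a32: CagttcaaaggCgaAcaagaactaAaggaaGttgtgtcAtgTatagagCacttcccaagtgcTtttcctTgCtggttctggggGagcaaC

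Of the windows of 100 bases along each transcript, 35.8% for Cyp4a12a and 36.2% for Cyp4a12b occurred unchanged in another member, against 20.1% for Cyp4a32, 12.7% for Cyp4a10, 8.22% for Cyp4a31 and 0 of 2397 for Cyp4a14. The split of reads within Cyp4a12a and Cyp4a12b, and within Cyp4a10, Cyp4a31 and Cyp4a32, is therefore less certain than the level of Cyp4a14. The annotated Cyp4a32 transcript is 1530 bases long and almost entirely coding, while the other members' transcripts run from 2109 to 2509 bases, and levels per length rest on those models. No exon of a member overlapped an exon of another gene in that annotation. Of the members, Cyp4a32 alone was matched in a RefSeq promoter table (GRCm38.p6, chr4:115600688-115600987, plus strand, 250 bases before to 50 after the start). On either strand it held no direct repeat of AGGTCA spaced by 1 base, with up to 2 mismatches allowed, the kind of site that PPAR alpha binds with RXR. Such a repeat was in 3.86% of 32851 promoters. It also held no TTCNNNGAA, the core of STAT5 sites, which 8.30% of promoters held.

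Summed counts ran from 22228115 to 41420589 per library. Replicates 2 and 3 of the males on high fat diet were closer to each other than any other pair within a group: a chi-square of their counts gave 3.9 per gene, against 55.6 for the next closest pair in that group and at least 20.8 for pairs elsewhere. They still differed by more than counting error, but this cannot tell 2 livers from 2 preparations of 1 liver. They were kept as 2 mice because the labels number them as separate replicates. The members' calls that involve that group, and other calls that are lost, are also given with these libraries averaged into 1. Among the other genes named below, Pdk4, Lpin1, Stat5a, Stat5b, Hnf4a, Por, Cyp4f13, Cyp2b9, Slc22a27 and Cyp2c40 were still called for diet in males after averaging, and Acot3, Abcd2, Hsd3b5, Mup20, Cux2 and Pdzk1ip1 for the sexes on high fat diet. The 5 hepatocyte markers summed to between 99550 and 113100 CPM (counts scaled to library size) in females on normal diet, 76350 to 94370 in females on high fat diet, 79520 to 89880 in males on normal diet and 50260 to 70780 in males on high fat diet. With high fat diet, 1 of the 5 was called lower in females and 3 of the 5 in males, against 5.76% and 5.36% of all tested genes. Of the 5 kidney tubule markers, Slc34a1, Slc5a2 and Kap were at 0 in every library, and the list summed to no more than 3.03 CPM in any. CPM values here are scaled by TMM, the trimmed mean normalization of edgeR, while levels of different genes are compared only in TPM, the deposited unit that allows for transcript length.

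In females the family was almost wholly Cyp4a10 and Cyp4a14. On normal diet Cyp4a10 stood at 1035 ± 273 TPM (SD, n = 4) and Cyp4a14 at 917.2 ± 366.6, and on high fat diet at 661.8 ± 275.3 and 745.9 ± 328.7. These levels of Cyp4a10 and Cyp4a14 overlapped within each female group. Cyp4a32 followed at 14.04 ± 4.82 TPM on normal diet and 10.66 ± 1.82 on high fat diet. Cyp4a31 was near it, at 9.64 ± 4.01 and 8.64 ± 4.10 TPM, and the SDs of Cyp4a32 and Cyp4a31 overlapped on both diets. Cyp4a12a and Cyp4a12b came last, at 0.7625 ± 0.663 and 0.22 ± 0.064 TPM on normal diet and 0.35 ± 0.24 and 0.14 ± 0.055 on high fat diet.

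In males on normal diet Cyp4a10, at 334.5 ± 206.2 TPM, and Cyp4a12a, at 229.4 ± 33.0, had the highest means, and their SDs overlapped. Cyp4a14 at 93.16 ± 74.09 and Cyp4a12b at 78.36 ± 18.9 overlapped, and Cyp4a32 at 24.47 ± 3.89 and Cyp4a31 at 12.08 ± 7.33 TPM were the lowest. The levels in males on high fat diet were 249.9 ± 209.7 TPM for Cyp4a10, 190.7 ± 181.7 for Cyp4a14 and 104.0 ± 56.8 for Cyp4a12a. Those SDs overlapped widely, so the order of these 3 was not resolved. Cyp4a12b at 25.06 ± 20.0 and Cyp4a32 at 22.04 ± 5.28 TPM were alike within their spread, and Cyp4a31 was lowest at 3.79 ± 1.67.

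**Figure D1:**
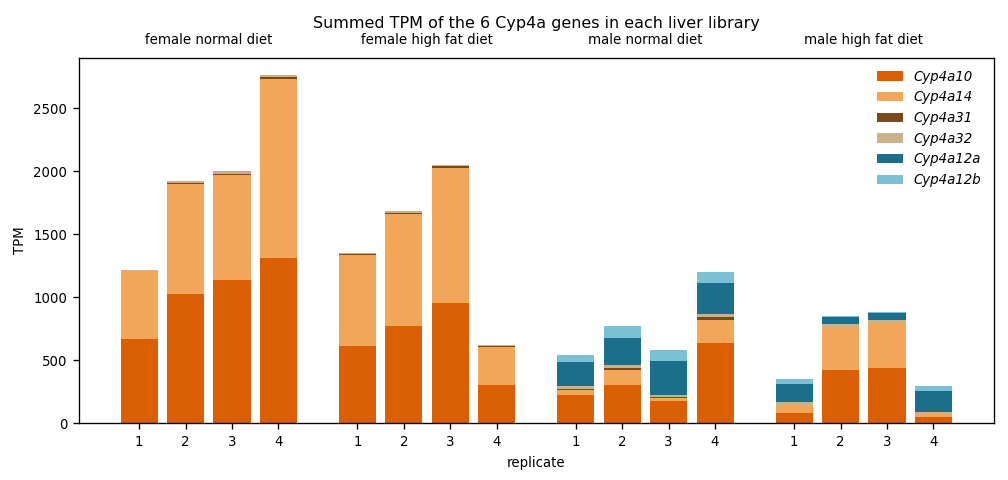
Deposited TPM of the 6 Cyp4a genes stacked for each of the 16 livers, with the library on the horizontal axis and summed TPM on the vertical axis. Female bars are nearly all Cyp4a10 and Cyp4a14, while Cyp4a12a and Cyp4a12b make up 27.5% to 60.7% of the bars of males on normal diet.

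The summed level of the 6 genes was 1977 ± 632 TPM in females on normal diet (range 1219 to 2765) and 1427 ± 609 in females on high fat diet (621.8 to 2053). In males it was 771.9 ± 301.8 on normal diet (539.5 to 1198) and 595.4 ± 312.7 on high fat diet (296.7 to 880.8). The growth hormone-driven pair, Cyp4a12a with Cyp4a12b, made up between 0.0187% and 0.102% of that sum in females on normal diet and between 0.0261% and 0.040% on high fat diet. Within males on high fat diet the same share took values far apart, at 51.9%, 7.69%, 6.93% and 69.3% in replicates 1 to 4.

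Cyp4a12a and Cyp4a12b set males apart from females on both diets. For Cyp4a12a, the livers of females on normal diet gave 1.075, 0.3679, 3.000 and 1.115 CPM and those of males on normal diet 392.2, 392.6, 490.1 and 470.1. The values on high fat diet were 0.7552, 0.4961, 1.010 and 0.03924 CPM in females and 254.4, 103.9, 98.99 and 288.4 in males. The highest female library lay far below the lowest male library on either diet, and the female values rest on between 1.16 and 81.57 expected counts per library. Cyp4a12a was 319.9-fold lower in females on normal diet (log2 difference -8.32 ± 0.67, SE, edgeR quasi-likelihood test, Benjamini-Hochberg adjusted p = 4.18e-06) and 316.9-fold lower on high fat diet (-8.31 ± 0.70, edgeR adjusted p = 4.96e-06).

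For Cyp4a12b, the levels were 0.4448, 0.3372, 0.5123 and 0.3293 CPM in females on normal diet and 102.2, 168.7, 152.8 and 161.8 in males on normal diet. With high fat diet they were 0.1208, 0.1985, 0.3366 and 0.2354 CPM in females and 77.26, 14.70, 13.26 and 71.90 in males. Female and male libraries again lay apart on both diets, with 4.3 to 14.43 expected counts per female library. Cyp4a12b was 364-fold lower in females on normal diet (log2 difference -8.51 ± 0.72, edgeR adjusted p = 7.1e-06) and 199.5-fold lower on high fat diet (-7.64 ± 0.76, edgeR adjusted p = 2.49e-05). With female values this low the size of the fold depends on the processing. The smallest log2 differences over the other settings were -5.99 on normal diet and -4.095 on high fat diet. Since reads of this pair can be exchanged, the pair was also tested as a sum, which was 328.9-fold lower in females on normal diet and 286.1-fold lower on high fat diet (edgeR adjusted p = 1.45e-06 and 1.67e-06). The ratio of Cyp4a12a to Cyp4a12b in TPM lay between 2.30 and 3.79 in males on normal diet and was 3.25, 6.97, 7.37 and 3.96 in the 4 males on high fat diet.

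**Figure D2:**
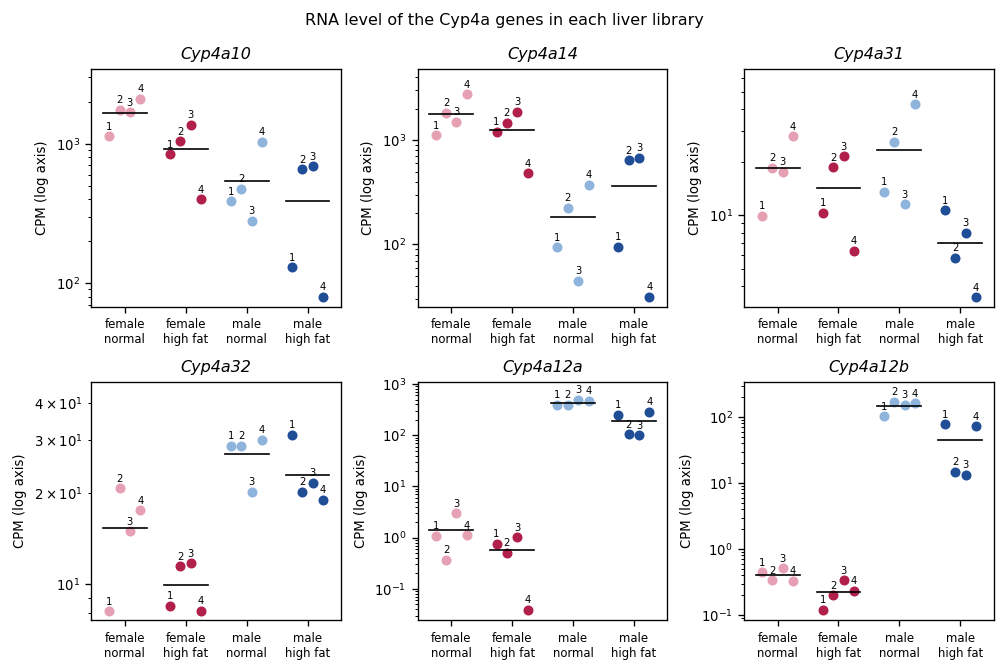
CPM of each Cyp4a gene (log axis) in the 4 groups, with 1 numbered point per liver, the number being the replicate, and a black line at the group mean. Cyp4a12a and Cyp4a12b leave a wide gap between females and males, and replicates 2 and 3 of the males on high fat diet lie together for Cyp4a10, Cyp4a14, Cyp4a12a and Cyp4a12b.

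Cyp4a14 was higher in females than in males on normal diet. Its levels there were 1113, 1813, 1504 and 2752 CPM in females and 94.13, 224.6, 44.98 and 370.5 in males. Every female liver lay above every male liver, and the difference was 9.776-fold (log2 3.29 ± 0.93, edgeR adjusted p = 0.031). This call was close to the threshold. The adjusted p lay between 0.0645 and 0.0814 when 1 of 5 livers was left out (female normal diet replicates 2 or 4, male normal diet replicates 1, 2 or 3). Among mice on high fat diet Cyp4a14 measured 1204, 1459, 1868 and 479.9 CPM in females and 94.28, 638.0, 678.2 and 31.61 in males. Those groups overlapped, and the difference of 1.80 ± 0.88 did not pass (edgeR adjusted p = 0.164, or 0.137 with the close male libraries averaged).

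Cyp4a10 showed the same order of the sexes without passing the test. On normal diet it measured 1133, 1746, 1680 and 2098 CPM in females and 386.0, 474.8, 278.9 and 1037 in males, which did not overlap. The difference was 1.61 ± 0.66 on the log2 scale (edgeR adjusted p = 0.116, but 0.0433 with the Wald test of DESeq2 and 0.0386 in an edgeR fit on the normal diet groups alone). On high fat diet the levels were 842.5, 1045, 1369 and 400.3 CPM in females and 130.0, 654.6, 688.6 and 79.47 in males, which overlapped, with a log2 difference of 1.24 ± 0.65 (edgeR adjusted p = 0.196, or 0.131 with the close male libraries averaged). The ratio of Cyp4a14 to Cyp4a10 in TPM was 0.736 to 1.08 in females on normal diet and 0.133 to 0.389 in males on normal diet, so the ranges of the sexes lay apart. In males on high fat diet it was 0.597, 0.802, 0.810 and 0.328.

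Cyp4a32, although a close copy of Cyp4a10, was lower in females than in males. It measured 8.118, 20.79, 14.97 and 17.58 CPM in females and 28.82, 28.82, 20.26 and 30.18 in males on normal diet, overlapping at female replicate 2 and male replicate 3. The difference was -0.81 ± 0.24 on the log2 scale (edgeR adjusted p = 0.0274). Leaving out any of 5 livers (female normal diet replicates 1 or 3, male normal diet replicates 1, 2 or 4) moved the adjusted p to between 0.0552 and 0.0745, and a fit on the normal diet groups alone gave 0.0503. On high fat diet the levels were 8.458, 11.44, 11.70 and 8.123 CPM in females and 31.29, 20.23, 21.68 and 19.04 in males. Here no female library reached a male one, the difference was -1.22 ± 0.24 (edgeR adjusted p = 0.00258), and it passed whichever library was left out. With the close male libraries averaged it was -1.24 (edgeR adjusted p = 0.00539), and the differences on high fat diet of Cyp4a12a and Cyp4a12b were -8.49 and -7.92 (edgeR adjusted p = 7.82e-06 and 4.81e-06). Summed with Cyp4a10 and Cyp4a31, the 3 near-identical genes gave 1.51 ± 0.61 on normal diet (edgeR adjusted p = 0.111) and 1.17 on high fat diet (edgeR adjusted p = 0.188), a sum made mostly of Cyp4a10.

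Cyp4a31 did not pass in either comparison of the sexes. Its levels were 9.898, 18.52, 17.56 and 27.99 CPM in females and 13.55, 26.08, 11.54 and 42.36 in males on normal diet, which overlapped (log2 difference -0.34, edgeR adjusted p = 0.679). Without male normal diet replicate 4 the log2 difference changed sign, to 0.12. The difference on high fat diet was 1.02 ± 0.51 (edgeR adjusted p = 0.173). Across the family, 4 of 6 members passed on normal diet, 1 higher and 3 lower in females, where 15.7% of all tested genes passed, 7.03% higher and 8.68% lower. The values of 4 members did not overlap between the sexes there (Cyp4a10, Cyp4a14, Cyp4a12a and Cyp4a12b), as for 22% of all tested genes. Among mice on high fat diet 3 of 6 passed, all lower in females, against 20.4% of all tested genes, 8.84% higher and 11.6% lower. Those 3 were also the members without overlap, against 22.7% of all tested genes. In that comparison 4 of 6 Kupffer cell markers were higher in females, with sums of 379.7 to 562.6 CPM against 180.2 to 387.3 in males, and their part in the members' results was not tested.

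**Figure D3:**
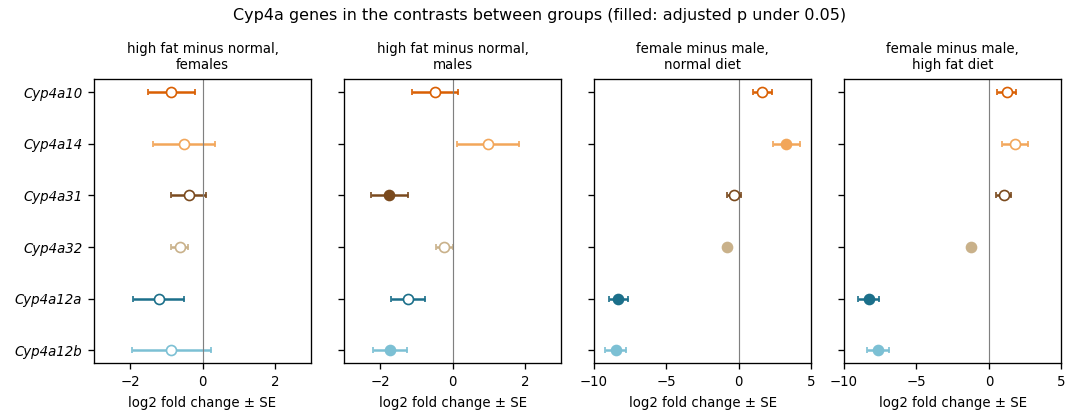
Log2 fold change with its SE for each Cyp4a gene, filled where the edgeR adjusted p was under 0.05. The panels give diet in each sex and the sexes on each diet, and the interaction is not drawn. The sex differences of Cyp4a12a and Cyp4a12b lie near -8 on both diets, and the diet changes of all 6 genes are small beside them.

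In males the high fat diet went with lower Cyp4a12b and Cyp4a31. Cyp4a12b fell from 146.4 ± 30.15 CPM on normal diet to 44.28 ± 35.06 on high fat diet, with no overlap of the groups (log2 change -1.73 ± 0.48, edgeR adjusted p = 0.0354). Cyp4a31 measured 13.55, 26.08, 11.54 and 42.36 CPM on normal diet and 10.70, 5.771, 7.937 and 3.453 on high fat diet, also without overlap, a change of -1.75 ± 0.51 (edgeR adjusted p = 0.0447). Cyp4a12a moved from 436.3 ± 51.31 to 186.4 ± 99.11 CPM, again without overlap, but its change of -1.23 ± 0.48 did not pass (edgeR adjusted p = 0.116, but 0.0236 with limma on log2(TPM + 1), where Cyp4a31 was at 0.0632). With 2 of 6 members called, both lower, the background was 11.4% of all tested genes, 6.03% higher and 5.36% lower. For groups that did not overlap, 3 of 6 members compared with 18.5% of all tested genes.

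The hepatocyte marker sum was lower in the same comparison, as given above, and the 6 pancreatic acinar markers summed to between 12.66 and 36.43 CPM in males on high fat diet against 5.137 to 14.7 on normal diet. The 6 periportal markers summed to between 3748 and 4685 CPM against 5760 to 7763 (2 lower), the 7 pericentral markers to between 13710 and 16150 against 8597 to 13650 (3 higher), and the 5 adipocyte markers to between 1.003 and 6.198 against 0.7134 to 1.685 (1 of the 2 tested higher). In females, where no member was called for diet, the periportal markers also summed lower, to between 3342 and 4330 CPM against 5797 to 7102 (2 lower). Of all tested genes, 6.03% were called higher and 5.36% lower for diet in males, and 5.76% lower in females. The part of any of these marker changes in the results was not tested.

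Both calls in males lay close to the threshold. With replicates 2 and 3 of the males on high fat diet averaged into 1, Cyp4a12b changed by -1.43 (edgeR adjusted p = 0.0587) and Cyp4a31 by -1.74 (edgeR adjusted p = 0.0965), and neither passed. The adjusted p of Cyp4a12b lay between 0.0539 and 0.0723 without any 1 of male high fat diet replicates 2 or 3 or male normal diet replicates 2, 3 or 4. For Cyp4a31 it lay between 0.0556 and 0.122 without any 1 of female high fat diet replicate 2, female normal diet replicates 2 or 3, male high fat diet replicates 2, 3 or 4, or male normal diet replicates 2 or 4. The sum of Cyp4a12a and Cyp4a12b changed by -1.34 ± 0.44 (edgeR adjusted p = 0.0682). The sum of Cyp4a10, Cyp4a31 and Cyp4a32 changed by -0.51 (edgeR adjusted p = 0.629).

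Cyp4a10, Cyp4a14 and Cyp4a32 gave no call for diet in males. Their log2 changes were -0.49 ± 0.64 for Cyp4a10, 0.97 ± 0.86 for Cyp4a14 and -0.23 ± 0.23 for Cyp4a32 (edgeR adjusted p = 0.672, 0.508 and 0.565). The Cyp4a10 change was 0.02 without male normal diet replicate 4. Between replicates of the males on high fat diet, Cyp4a14 spanned 21.45-fold and Cyp4a10 8.665-fold. The SD of log2 CPM in that group was 2.17 for Cyp4a14 and 1.60 for Cyp4a10, larger than for 99.7% and 99.0% of tested genes, where the median SD was 0.231. Diet differences of the size estimated for Cyp4a10 and Cyp4a14 were not detectable against this spread.

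Within the 4 males on high fat diet Cyp4a10 and Cyp4a14 were high in the livers where Cyp4a12a and Cyp4a12b were low. Cyp4a31 and Cyp4a32 did not follow that split, both being highest in replicate 1. Replicates 2 and 3 had 784.2 and 819.7 TPM of Cyp4a10, Cyp4a14, Cyp4a31 and Cyp4a32 together, nearly all of it Cyp4a10 and Cyp4a14, and 65.37 and 61.05 TPM of the growth hormone-driven pair, while replicates 1 and 4 had 170.5 and 91.02 TPM of the former and 184.0 and 205.6 TPM of the latter. Since replicates 2 and 3 are the unusually close libraries, this is a description of 4 livers, and no test was made. Other genes split these livers in the same way. The male-biased Hsd3b5, a steroid dehydrogenase, measured 151.0, 32.11, 30.24 and 161.2 CPM in replicates 1 to 4, and the major urinary protein gene Mup7 measured 3954, 520.7, 499.5 and 3769. The female-biased Cyp2b9 measured 3.307, 96.17, 95.83 and 6.508 CPM. Acot3, a peroxisomal acyl-CoA thioesterase, measured 4.088, 46.44, 50.82 and 3.320 CPM. Among males on normal diet the former set summed to 297.0, 464.4, 227.0 and 868.4 TPM and the pair to 242.5, 307.7, 351.1 and 329.5.

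**Figure D4:**
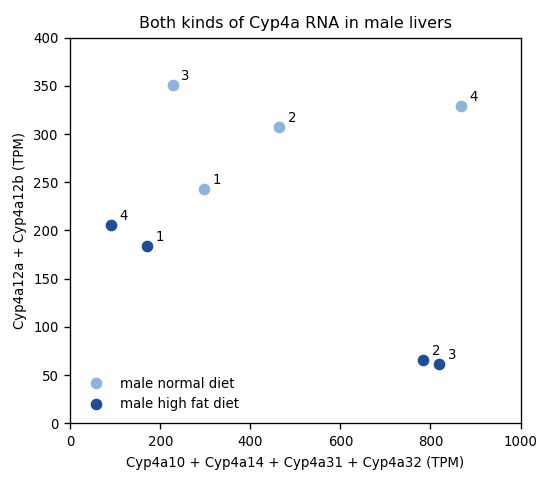
Summed TPM of Cyp4a10, Cyp4a14, Cyp4a31 and Cyp4a32 (horizontal) against summed TPM of Cyp4a12a and Cyp4a12b (vertical) in the 8 male livers, each point numbered by replicate. Replicates 2 and 3 on high fat diet lie at 65.37 and 61.05 TPM of the pair, below the 6 other livers, which run from 184.0 to 351.1.

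In females no member passed for diet, with 11.5% of all tested genes called there, 5.74% higher and 5.76% lower. No member was free of overlap between the female groups, against 18.3% of all tested genes. The log2 changes were all negative: -0.86 ± 0.65 for Cyp4a10, -0.52 ± 0.85 for Cyp4a14, -0.39 ± 0.50 for Cyp4a31, -0.63 ± 0.24 for Cyp4a32, -1.21 ± 0.71 for Cyp4a12a and -0.86 ± 1.09 for Cyp4a12b. The last 2 rest on 1.16 to 81.57 and 4.3 to 14.43 expected counts per female library, so their direction adds little. The edgeR adjusted p-values ran from 0.0955 for Cyp4a32 to 0.737 for Cyp4a14. At an unadjusted p under 0.05, edgeR gave 1 member, Cyp4a32, and DESeq2 gave 2, none of them passing after adjustment. Replicate 4 of the females on high fat diet was the lowest of its group for Cyp4a10, Cyp4a14, Cyp4a31, Cyp4a32 and Cyp4a12a. Whether the diet changed a member differently in the sexes was tested by the interaction, which called 0 of 6 members by edgeR (0 at an unadjusted p under 0.05) and 0 by DESeq2, against 0.677% of all tested genes, 0.264% with a positive and 0.413% with a negative estimate. The largest interaction estimate was that of Cyp4a14, at -1.49 ± 1.21 (edgeR adjusted p = 0.658).

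The genes whose log2 CPM followed a member most closely over the 16 livers were ranked by the root mean square of the difference between centred profiles, in log2 units. Nearest to Cyp4a14 were Abcd2 at 0.775, a peroxisomal importer of very long chain fatty acids, then Nipal1 at 0.906, Cyp4a10 at 0.942, Serpinb1a at 0.978 and Gm11695 at 0.984. Nearest to Cyp4a12a were Mup7 at 0.849, the Y-linked Ddx3y at 0.849 and Eif2s3y at 0.864, Cyp4a12b at 1.023 and the Y-linked Uty at 1.129. Since both sexes enter, a gene with a like gap between them ranks near whatever it does within males. From normal to high fat diet in males, mean CPM went from 436.3 to 186.4 for Cyp4a12a and from 3408 to 2186 for Mup7. It went from 108.3 to 115.4 for Ddx3y, 65.38 to 64.53 for Eif2s3y and 20.88 to 22.82 for Uty. Cyp4a12a and Cyp4a14 lay 6.042 apart on this measure.

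Of 35 tested PPAR alpha target genes other than Cyp4a, 4 fell in females on high fat diet and none rose (median log2 change -0.16, against 0.00193 over all tested genes). That is 11.4% of the list, against 11.5% of all tested genes, and the count became 2 without any 1 of female high fat diet replicates 1 or 4 or female normal diet replicates 2, 3 or 4. The 4 were Slc25a20, the mitochondrial carnitine carrier, and, with larger changes, Angptl4, an inhibitor of lipoprotein lipase (-1.37 ± 0.28, edgeR adjusted p = 0.00578), Pex11a, a peroxisome division factor (-0.91 ± 0.25, edgeR adjusted p = 0.0296, lost in 6 of the 16 fits that left out a library), and Eci2, an enoyl-CoA isomerase (-0.67 ± 0.12, edgeR adjusted p = 0.00155). In males 5 rose and 1 fell (median -0.02, against 0.0111 over all tested genes), which is 17.1% of the list against 11.4% of all tested genes. The count of 6 became 3 with the close libraries averaged and 2 without male normal diet replicate 1. Pdk4, which restrains pyruvate oxidation, rose by 2.67 ± 0.52 on the log2 scale (edgeR adjusted p = 0.00548). The hormone gene Fgf21 rose by 2.43 ± 0.70 (edgeR adjusted p = 0.0377) and the thioesterase gene Acot2 by 1.20 ± 0.36 (edgeR adjusted p = 0.0464), and those 2 calls were lost in 9 and 11 of the 16 fits that left out a library, and with the close libraries averaged (edgeR adjusted p = 0.05 and 0.122). No target passed for the interaction by edgeR, with 7 at an unadjusted p under 0.05.

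Between the sexes on normal diet, 11 of the 35 targets passed, 10 of them higher in females (median 0.31), or 31.4% of the list against 15.7% of all tested genes. The count became 7 without female normal diet replicate 2 and 6 without male normal diet replicate 3. Acot3 was 13.64-fold higher in females (edgeR adjusted p = 0.00913), Pdk4 6.982-fold (edgeR adjusted p = 0.00316) and Acot2 3.302-fold (edgeR adjusted p = 0.00567). Among mice on high fat diet 9 passed, 3 higher and 6 lower in females (median 0.12), with Acot3 still 12.9-fold higher (edgeR adjusted p = 0.00831). That count of 9, 25.7% of the list against 20.4% of all tested genes, became 5 with the close libraries averaged and 4 to 8 when any 1 library was left out. Ppara itself gave no call, with log2 changes of -0.10 ± 0.30 in females and 0.36 ± 0.30 in males on high fat diet (edgeR adjusted p = 0.867 and 0.470). Of the 12 genes listed as PPAR alpha and its partners, Lpin1, a phosphatidate phosphatase and coactivator, fell by 3.27 ± 0.29 in females and by 1.78 ± 0.27 in males (edgeR adjusted p = 1.2e-05 and 0.000752). It was the 1 call of that list in females, or 8.33% against 11.5% of all tested genes. In males Pparg, the lipid storage receptor, also passed and rose by 0.93 ± 0.27 (edgeR adjusted p = 0.0353, lost in 7 of the 16 fits that left out a library, and 0.0991 with the close libraries averaged). These 2 calls in males are 16.7% of the list, against 11.4% of all tested genes.

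Of 18 other male-biased growth hormone dependent genes, 17 were lower in females on normal diet (median log2 difference -4.14) and all 18 on high fat diet (median -4.87). Of all tested genes, 8.68% and 11.6% were called lower. Hsd3b5 was 81.22-fold lower in females on normal diet and 133.6-fold on high fat diet (edgeR adjusted p = 7.98e-05 and 4.93e-05). Mup20 was 58.97-fold and 80.42-fold lower (edgeR adjusted p = 1.68e-07 and 6.94e-08). Mup genes form a large family of near copies, so their counts carry the same doubt as the pair's. The 18 female-biased genes were higher in females in 17 cases on normal diet and in 18 on high fat diet (medians 8.80 and 7.97). Among all tested genes 7.03% and 8.84% were called higher. These lists were known for their sex bias, so their direction is no independent evidence.

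With high fat diet in males, 1 of the 18 male-biased genes (5.56%, against 11.4% of all tested genes) passed (median -0.31). This was Gstp1, a glutathione transferase, which fell by 1.42 ± 0.37 (edgeR adjusted p = 0.0232, but 0.0522 with the close libraries averaged). In females 3 fell and 1 rose (median -0.52), which is 22.2% of the list against 11.5% of all tested genes. That count of 4 became 2 without replicate 4 of the females on high fat diet or any 1 of replicates 2, 3 and 4 of those on normal diet. The transporter Slco1a1 fell by 3.17 ± 0.62 (edgeR adjusted p = 0.00684, not called in a fit on females alone) and the elongase Elovl3 by 1.93 ± 0.53 (edgeR adjusted p = 0.0323, lost in 5 of the 16 fits that left out a library), and Cyp2u1 rose by 1.07 ± 0.31 (edgeR adjusted p = 0.0357, lost in 6 of those fits). Of the 18 female-biased genes, 3 passed in males, or 16.7% against 11.4% of all tested genes. Cyp2b9 rose by 6.15 ± 1.14 and Slc22a27, an organic anion transporter, by 3.60 ± 0.73 (edgeR adjusted p = 0.00476 and 0.00743, the former not called in a fit on males alone), while Cyp2c40 fell by 3.77 ± 0.40 (edgeR adjusted p = 5.37e-05). The 2 rises were uneven: on high fat diet Cyp2b9 ran from 3.307 to 96.17 CPM between males and Slc22a27 from 0.7432 to 7.559. On normal diet they reached at most 1.678 and 0.4331 CPM. Cyp2b9 was highest in the close replicates 2 and 3. None of the 18 female-biased genes passed for diet in females by edgeR, against 11.5% of all tested genes, with 2 at an unadjusted p under 0.05.

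Within the growth hormone pathway, Stat5b rose in males on high fat diet by 0.70 ± 0.13 on the log2 scale (edgeR adjusted p = 0.00243) and its neighbour Stat5a by 1.15 ± 0.19 (edgeR adjusted p = 0.000834), while Hnf4a, a hepatocyte transcription factor, fell by 0.47 ± 0.12 (edgeR adjusted p = 0.0139, not called without male normal diet replicate 3). These were 3 of 14 genes, or 21.4% against 11.4% of all tested genes. The levels of Stat5b were 30.79 ± 3.39 CPM in males on normal diet and 50.16 ± 7.80 on high fat diet. In females 2 of the 14 passed, or 14.3% against 11.5% of all tested genes, with Hnf4a lower by 0.60 ± 0.12 (edgeR adjusted p = 0.00331). The difference between the sexes in the Stat5b change did not pass (interaction -0.59 ± 0.19, edgeR adjusted p = 0.175). Cux2, a repressor known as female-specific in liver, was 65.21-fold higher in females on normal diet and 103.8-fold on high fat diet (edgeR adjusted p = 8.81e-09 and 5.98e-09). The receptor gene Ghr and the repressor gene Bcl6 gave no call in any of the 5 comparisons, with log2 changes for diet of -0.17 and 0.06 for Ghr and of -0.97 and -0.42 for Bcl6 in females and males.

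Por, the reductase that passes electrons to every microsomal P450 including the Cyp4a enzymes, fell with high fat diet in both sexes. It went from 761.5 ± 65.05 to 423.5 ± 74.8 CPM in females (log2 change -0.85 ± 0.13, edgeR adjusted p = 0.000619) and from 623.6 ± 33.45 to 386.7 ± 46.57 in males (-0.69 ± 0.13, edgeR adjusted p = 0.00282). It was the 1 of 3 electron donor genes called for diet in either sex. That is 33.3% of the list, against 11.5% of all tested genes in females and 11.4% in males. Of the 19 genes listed for the steps after omega hydroxylation, 3 passed for diet in females, or 15.8% against 11.5% of all tested genes. Crot, which makes carnitine esters in peroxisomes, rose in females by 0.61 ± 0.15 (edgeR adjusted p = 0.0142). Abcd2 was 8.913-fold higher in females than in males on normal diet and 5.289-fold on high fat diet (edgeR adjusted p = 0.00629 and 0.0175, the latter not called in a fit on the high fat diet groups alone).

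Of 14 other Cyp4 genes listed, 9 could be tested, and Cyp4a29 and Cyp4a30b had 0 counts in all 16 libraries. Cyp4f13 fell with high fat diet by 0.41 ± 0.09 in females and by 0.42 ± 0.09 in males (edgeR adjusted p = 0.00603 and 0.00452). On normal diet Cyp4f17 and Cyp4v3 were lower in females, by 0.78 ± 0.17 and 0.61 ± 0.14 on the log2 scale, and Cyp4f14, a leukotriene hydroxylase, was higher by 0.56 ± 0.13 (edgeR adjusted p = 0.00477, 0.00733 and 0.00637). On the chromosome, the genes next to the cluster, Pdzk1ip1 and Efcab14, gave no call for diet in either sex, and Pdzk1ip1 was higher in females on high fat diet (log2 1.35 ± 0.40, edgeR adjusted p = 0.0228).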

How the data were processed

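Liver RNA of 16 mice was sequenced after poly(A) selection. Per the labels' protocols and the submitters' processing notes, STAR and RSEM were used with GRCm39; versions and strand setting are not given in the sources used here. The authors deposited RSEM expected counts per gene, of which 4.89% of entries were not whole and which were rounded here before testing, and TPM, which the authors deposited per gene as well and which were used unrounded.

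Genes were kept by filterByExpr (14781 of 78317, holding 99.94% of counts), scaled by TMM and fitted in 1 edgeR 4.0.16 quasi-likelihood model over the 4 groups, with 5 comparisons and Benjamini-Hochberg adjustment over all tested genes at a threshold of 0.05. SE is the absolute log2 change divided by the root of F. R 4.3.3, limma 3.58.1 and DESeq2 1.42.0 served the alternatives. The fit was tested on simulated data. Sequences come from GENCODE M21 transcripts. Counts give counting error only, and the p-values weigh a difference between groups against the spread between libraries, estimated over the 4 groups.

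The members and lists were chosen with earlier results of these data known. All 6 members are named; of each list, the 3 called genes with the largest change per comparison, and Ppara, Stat5b, Bcl6, Cux2, Ghr, Por and the cluster's neighbours in any case. Hsd3b5, Mup7, Cyp2b9 and Acot3 were named for single livers, and Slc25a20 to complete a count of 4, after their values were seen. Tried as alternatives were other scalings and filters, fits on the groups of a comparison alone, DESeq2, limma on log2 TPM, a replicate block, leaving out each library, averaging 2 close libraries and summing near-identical genes. Some list genes that this rule picks are not reported here.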

Additional observations from a re-analysis of the deposited data

Results flagged for a closer look

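In groups of 4, a liver was singled out when its gap to the nearest other liver as a share of the group's range exceeded Dixon's 95% critical value, which chance does in about 1 in 20 groups. Among the 6 Cyp4a genes, 1 of 24 groups had such a liver: Cyp4a32 in male normal diet replicate 3 at 20.26 CPM, where the others were at 28.82, 28.82 and 30.18. Among the other named genes it was 11 of 232 groups. In males on normal diet these were Bcl6 in replicate 4 at 38.71 CPM, Cyp3a16 in replicate 4 at 1.787, Cyp4f13 in replicate 1 at 58.43, Pdzk1ip1 in replicate 1 at 1.112 and Pparg in replicate 2 at 6.592. In males on high fat diet they were Cyp3a41b in replicate 3 at 0.3436 CPM and Ghr in replicate 1 at 569.7. In females on normal diet they were Hsd3b5 in replicate 3 at 2.269 CPM and Rxrb in replicate 1 at 15.01. In females on high fat diet they were Bcl6 in replicate 4 at 8.241 CPM and Por in replicate 1 at 311.9.

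Cyp2c40, a female-biased P450 gene, changed differently with diet in the sexes: the female change minus the male change was 3.22 on the log2 scale (edgeR interaction, adjusted p = 0.00638).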

How the results depend on the processing

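The counts of members and the members' log2 changes were recomputed under up to 27 other settings (26 for the interaction) and the list counts under 26 (25 for the interaction), of which 16 left out 1 library. For diet in females the count of members called was 0 to 1 over the fits that left out a library (1 without female normal diet replicate 1, the gene being Cyp4a32) and 0 otherwise. For diet in males the 2 calls became 0 with no filter on low counts, with only the male groups in the fit, with the close libraries averaged and with near-identical genes summed, 1 with limma on log2(TPM + 0.1), 2 with limma on log2(TPM + 1) but with Cyp4a12a in place of Cyp4a31, and 0 to 2 over the fits that left out a library. The replicate block also gave 1, Cyp4a12b, with Cyp4a31 at an adjusted p of 0.0983. Replicate numbers showed no clear pairing of the mice, though this check cannot exclude one. Deviations correlated above 0.1 in 4 of 24 pairs of same-numbered libraries (r from -0.159 to 0.18), and 5 of 16 libraries correlated best with their own number. Those 4 pairs were all of replicate 1 (r of 0.137, 0.18, 0.125 and 0.164). The block raised the count over all genes from 1684 to 1980 for diet in males and from 1700 to 1864 for diet in females. For the sexes it rose from 2322 to 2685 on normal diet and from 3022 to 3445 on high fat diet, and for the interaction from 100 to 101. The block changed no other count of members by over 1.5 times. For the sexes on normal diet the 4 calls became 2 with no filter on low counts and 2 to 4 over the fits that left out a library (2 without male normal diet replicates 1 or 2), and stayed 4 in a fit on the normal diet groups alone, with Cyp4a10 in place of Cyp4a32. On high fat diet the 3 calls became 5 with limma on log2(TPM + 1). Cyp4a12a and Cyp4a12b stayed lower in females under every setting run, with adjusted p of at most 0.00418. The size of the difference varied, with the smallest log2 values on normal and high fat diet at -7.09 and -6.12 for Cyp4a12a and -5.99 and -4.095 for Cyp4a12b. Of 30 log2 changes of members, 7 changed sign in some setting. The Cyp4a10 change in males ran from -0.918 to 0.023 over the fits that left out a library, positive without male normal diet replicate 4. The Cyp4a10 interaction ran from -0.881 to 0.060 over those fits, positive without male high fat diet replicate 3, and was 0.073 with limma on log2(TPM + 1), 0.078 on log2(TPM + 0.1) and 0.035 with the close libraries averaged. The Cyp4a12a interaction, 0.01 as reported, ran from -0.34 to 0.69 over the fits that left out a library and was -0.18 with the close libraries averaged and -0.02 with DESeq2. The Cyp4a31 difference between the sexes on normal diet ran from -0.612 to 0.116 over those fits, positive without male normal diet replicate 4. Summing Cyp4a10, Cyp4a31 and Cyp4a32, mostly Cyp4a10 by construction, gave -0.35 for the interaction of Cyp4a31, 1.51 for the sexes on normal diet and 1.17 on high fat diet. Scaling by library totals alone moved the median of all genes by up to 0.192, and log2(TPM + 0.1) and log2(TPM + 1) moved it by up to 0.222 and 0.149, all for diet in females. Where no value above shows it, the cause was not tested. Cyp4a12a and Cyp4a12b in females rest on few counts, and Cyp4a12a also varied widely between females (SD of log2 CPM larger than for at least 98.8% of tested genes).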
